A study of Mus musculus with 2 samples.

Results

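The data described here are the DNase-seq peaks and footprints at 9 genes of Hedgehog signalling and of the adrenal capsule, namely Shh, Ptch1, Smo, Hhip, Gli1, Gli2, Gli3, Tcf21 and Nr2f2. The genes were taken by name from the basic gene set of GENCODE M21, and all 9 were found among its 21911 protein-coding genes. The rule itself used no measured value, but the members were chosen with earlier results of these data known. DNase-seq cuts accessible DNA in nuclei with the enzyme DNase I, so that open chromatin appears as peaks of cleavage, and a footprint is a short stretch within open chromatin that is protected from cutting. Adrenal glands were taken at 8 to 10 months from male mice of the strain B6CASTF1/J, whose parents are C57BL/6J and CAST/EiJ. There was 1 group with 2 replicates, each a pool of 6 gland biosamples and 1 library, and both pools carry the same donor label, so the spread between them may be partly technical. No treated, control or other-tissue group was included, so all results are levels in the whole gland and their repeat across the pools, without a test between groups.

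In Hedgehog signalling a secreted ligand binds the receptor Ptch1, which relieves the block on the membrane protein Smo. Smo then acts through the primary cilium to turn the Gli transcription factors into activators. In the adrenal cortex, steroidogenic precursor cells under the capsule secrete Shh, and the capsule cells, which express Gli1, respond to it and serve as a reserve of cortical cells. Tcf21 and Nr2f2 encode transcription factors of capsule and stromal cells. Both the capsule and the sender cells are minor parts of the gland. In a bulk library, a rare open cell type and a weakly open common one cannot be told apart.

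The main peak lists held 117371 peaks in replicate 1 and 146307 in replicate 2, with 272595 and 319381 footprints. The signal of a peak is the authors' own value, and its median was 0.699 and 0.727 in the respective pools. Peaks that overlapped between the pools were merged into 96584 shared regions, whose log2 ratio of replicate 2 to replicate 1 had a median of 0.35 (SD over regions 0.37). A promoter is taken as 1 kb on either side of an annotated transcription start site (TSS), and the window of a gene is its body with 50 kb on either side. Of 7 cortical marker genes, 6 had promoter peaks in each pool, as had 5 of 6 chromaffin markers, 2 of 4 endothelial markers, 2 of 3 fat markers, 0 of 3 macrophage markers and 0 of 3 kidney markers. The share over all protein-coding genes was 61.9%. The cortical gene without one was Hsd3b1. A peak in 1 pool alone was called at the chromaffin gene Pnmt (0.695, replicate 2) and the endothelial gene Tek (0.536, replicate 2). The macrophage gene Spi1 likewise had one in replicate 1 alone (0.669). All positions are on mm10.

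At their promoters the 9 genes were open to very different degrees, from a peak above the median of all genes at Ptch1 to little or nothing at Hhip and Tcf21. Both pools called a peak at the promoters of 6 of the 9 genes, against 61.9% of all protein-coding genes, so the share was close to the background. All 9 had one in replicate 2 (background 65.3%) and 6 in replicate 1 (background 62.9%). Hhip, Tcf21 and Nr2f2 thus made up 3 of 9 with a peak in replicate 2 alone (background 3.37%), and 0 of 9 lacked one in both (background 33.7%). The strongest promoter peak had a median signal of 1.18 over the 6 genes with one in replicate 1 and 1.49 over all 9 in replicate 2, below the medians of 2.94 and 3.81 over all genes with a promoter peak. Ptch1 was the only one of the 9 above those medians. The order of the levels was Ptch1, Gli1, Smo, Gli2, Gli3 and Shh by the mean of the pools. The pool values of Gli1 (mean 1.81 ± 0.437, SD, n = 2) overlapped those of Smo (1.50 ± 0.181), which overlapped those of Gli2 (1.29 ± 0.421). Other neighbours in that order did not overlap. Within each pool the order of these 6 genes was the same. Gli1, Smo and Gli2 had 1.50, 1.37 and 0.996 in replicate 1, and 2.12, 1.62 and 1.59 in replicate 2.

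**Figure D1:**
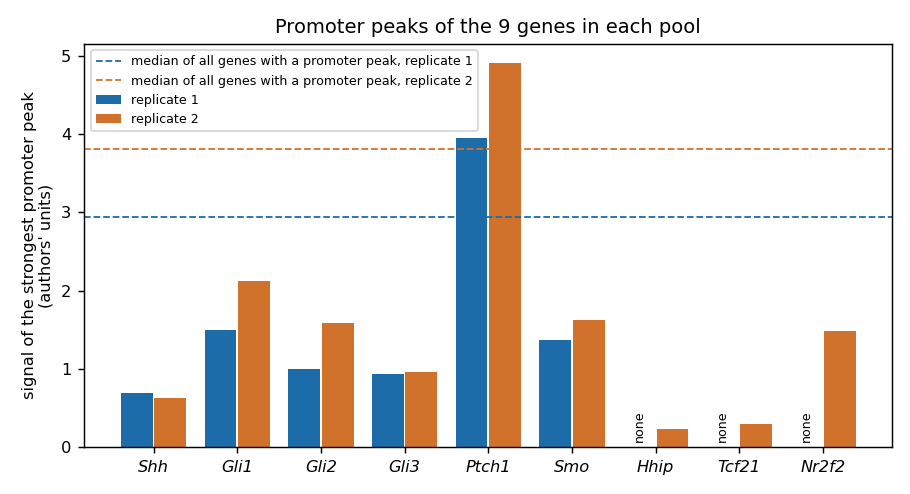
Bars give the authors' signal (y axis, authors' units) of the strongest peak within 1 kb of a TSS for each gene (x axis) in replicate 1 and replicate 2, and dashed lines give the medians of all protein-coding genes with a promoter peak. Only Ptch1, at 3.95 and 4.91, exceeds the lines, and Hhip, Tcf21 and Nr2f2 have no bar in replicate 1.

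Shh, which encodes the ligand, lies on chromosome 5 from 28456815 to 28467256 on the minus strand, 10.4 kb long, with 1 annotated TSS. Its promoter peak was weak, at 0.684 in the first pool and 0.632 in the second, at the 11.7th and 9.42nd percentile of genes with such a peak. The peak lay at 28466982 to 28467169 in replicate 1 and at 28466941 to 28467080 in replicate 2, just inside the gene, and the antisense transcript 9530036O11Rik and the noncoding Gm26894 are annotated over it as well. Each pool has a second, shorter deposited peak list, and how it differs from the longer one is not stated. It did not hold this peak in either pool, and the lowest false discovery rate (FDR) of cleavage in the promoter was 0.00261 in replicate 1 and 0.0104 in replicate 2. The neighbourhood was more open than the promoter. The window held 8 shared regions, or 7.24 per 100 kb against a median of 6.20 over all genes, and 7 of them lay away from every promoter.

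The strongest of these regions lay upstream of Shh at chr5:28469881-28470100, with its midpoint 2734 bp before the TSS and signals of 1.98 and 2.12. It is shown as the most open site of the ligand gene's window. The C57BL/6J reference sequence is given on the minus strand, the strand of the gene, with bases inside a footprint of both pools in capitals (32 of 220 bases).
Shh upstream region: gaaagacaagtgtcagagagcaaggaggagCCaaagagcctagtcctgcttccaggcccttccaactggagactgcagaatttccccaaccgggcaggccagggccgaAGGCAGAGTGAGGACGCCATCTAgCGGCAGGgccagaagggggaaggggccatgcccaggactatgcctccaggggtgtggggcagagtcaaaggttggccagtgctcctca
Nearly as open was a site inside the neighbouring gene Rbm33, at 28412361 to 28412580, with 1.95 and 2.08. Between Rbm33 and Shh lay a region at 28451281 to 28451480, with 1.28 and 1.85, and another at 28455761 to 28456020, with 1.17 and 1.30. An intron of Shh held 1 shared region, at 28465076 to 28465280, with 0.617 and 0.975. Upstream, a region 6504 bp before the TSS had 1.10 and 0.935, and the farthest, 34033 bp before it and within 9530036O11Rik, had 0.609 and 0.440. Shh was the only one of the 9 genes with fewer bases of cleavage at an FDR of at most 0.001 in replicate 2 (1029) than in replicate 1 (1191), while over the genome replicate 2 had 1.38 times as many.

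Ptch1, the receptor gene and itself a target of Gli factors, lies on chromosome 13 from 63508328 to 63573598 on the minus strand. The basic set gives it 2 TSSs, at 63565735 and 63564535, both inside that gene record. Ptch1 had the most open promoter of the 9 genes. Its strongest promoter peak had signals of 3.95 in replicate 1 and 4.91 in replicate 2 (4.43 ± 0.681, SD, n = 2), at the 61.5th and 60.2nd percentile of genes with a promoter peak. That peak held 12 footprints in replicate 1 and 11 in replicate 2.

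Another promoter region of Ptch1, upstream of the outer TSS at 63566241 to 63566480 but inside the gene record, had signals of 2.48 and 4.20. It held the consensus site of Gli factors, GACCACCCA, at 63566435 to 63566443. Among the 69 distinct shared regions of the 9 genes that do not lie at another gene's promoter, this was the only one with an exact match on either strand (1.45%), and 159 of all 96584 shared regions had one (0.165%). The match was not inside a footprint in either pool. The sequence is given as chr13:63566241-63566480 on the plus strand with the match in capitals, to place that site within the open region.
Ptch1 upstream region: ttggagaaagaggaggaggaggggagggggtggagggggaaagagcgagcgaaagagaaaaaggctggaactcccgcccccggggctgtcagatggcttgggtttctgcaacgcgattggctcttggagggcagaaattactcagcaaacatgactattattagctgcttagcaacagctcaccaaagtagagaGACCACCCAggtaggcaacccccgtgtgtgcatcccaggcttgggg
Farther in, 2 promoter regions overlapped coding exons, at 63563301 to 63563640 (1.46 and 2.10) and 63563661 to 63564500 (1.02 and 1.41). The region with the most signal in the window was at 63567821 to 63568160, with 4.74 and 6.42. It lay 2255 bp before the outer TSS, inside the gene record. It is at the promoter of A930032L01Rik, a transcript that GENCODE places in its TEC class. Cleavage passed an FDR of 0.05 over 2416 of the 3201 promoter bases in replicate 1 and over 3174 in replicate 2, the fullest coverage of the 9 genes in replicate 1. Elsewhere, 3 shared regions lay in introns, 1 in a coding exon (63513541 to 63513840, 0.743 and 0.799), 2 upstream and 1 downstream. The downstream one, at 63507101 to 63507340, had 1.50 and 2.77 and a match to the AP-1 motif TGANTCA, which Fos and Jun dimers bind, inside footprints of both pools.

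Smo, which encodes the signal transducer, lies on chromosome 6 from 29735503 to 29761365 on the plus strand. The region from 29735341 to 29735600, just upstream of its basic-set TSS (29735694) and across the start of the gene record, had signals of 1.37 and 1.62. A second promoter region at 29735741 to 29736460, overlapping a coding exon, had 0.751 and 1.04. Both were in the shorter lists of both pools. The gene body held 2 shared regions in introns, at 29756501 to 29756760 (0.921 and 0.783) and 29758561 to 29758760 (0.795 and 1.37). The window of Smo held 13 shared regions, or 10.3 per 100 kb, but 4 were promoters of Ahcyl2 and Tspan33, and the strongest, with 6.78 and 8.45, belonged to Ahcyl2.

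Hhip encodes a membrane protein that sequesters Hedgehog ligands and is a target of the pathway. The gene, on chromosome 8 from 79965851 to 80058006 on the minus strand, had little called signal. No promoter peak was called in replicate 1, and replicate 2 had a peak of 101 bp over the TSS with a signal of 0.224, at the 1.08th percentile. No promoter base in replicate 1 was listed with an FDR under 0.05, and 68 bases were listed in replicate 2, none of them at 0.001 or lower. In 192 kb the window held 2 shared regions, an intron region at 80032681 to 80032920 (0.223 and 0.352) and one downstream at 79952961 to 79953120 (0.297 and 0.464). It held 1 footprint in each pool, and these did not overlap.

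Gli1 encodes the Gli factor that is transcribed in response to the pathway and marks the capsule. It lies on chromosome 10 from 127329882 to 127341974 on the minus strand. Its promoter region, upstream of the TSS at chr10:127342381-127342600, had signals of 1.50 and 2.12, and a region in an intron at chr10:127338901-127339140 was stronger, with 2.47 and 3.70. Both regions were higher in replicate 2, by 0.50 and 0.58 on the log2 scale. They are shown on the minus strand because these were the only 2 shared regions at the promoter or inside this gene, with bases in footprints of both pools in capitals (26 of 220 and 52 of 240 bases).
Gli1 promoter region: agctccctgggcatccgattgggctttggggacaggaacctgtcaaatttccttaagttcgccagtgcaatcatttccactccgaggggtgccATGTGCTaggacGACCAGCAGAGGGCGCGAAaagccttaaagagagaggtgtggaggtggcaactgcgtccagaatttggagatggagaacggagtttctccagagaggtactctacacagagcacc
Gli1 intron region: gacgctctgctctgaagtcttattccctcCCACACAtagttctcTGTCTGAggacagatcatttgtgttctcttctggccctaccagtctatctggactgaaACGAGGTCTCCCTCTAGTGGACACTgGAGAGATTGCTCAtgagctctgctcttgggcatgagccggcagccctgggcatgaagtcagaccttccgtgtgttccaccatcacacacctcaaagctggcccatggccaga
The antisense gene Gm47200 is annotated over both. Gli1 sits among closely spaced genes, and 10 of the 15 shared regions in its window were promoters of other genes, such as Mbd6, Ddit3, Mars and R3hdm2. The strongest, at the promoter shared by Ddit3 and Gm4189, had 14.6 and 15.8. The strongest region that was no promoter, with 3.25 and 3.87, lay inside Ddit3, 48744 bp from the TSS of Gli1. The density was 13.4 shared regions per 100 kb, at the 90.4th percentile of genes, and without promoters it was 3.57 per 100 kb against a median of 3.49.

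Gli2 encodes the main activator of the family. It lies on chromosome 1 from 118834132 to 119053619 on the minus strand. Its promoter region, at 119053541 to 119053820 over the TSS, had 0.996 and 1.59. The most open site of the gene was deep inside it, in an intron 76889 bp from the TSS at chr1:118976621-118976840, with signals of 4.88 in replicate 1 and 6.48 in replicate 2. Both values were far above those of the promoter, and the site ranked at the 95.4th and 95.8th percentile of all shared regions. It held 4 footprints in replicate 1 and 7 in replicate 2. The sequence on the minus strand is shown as the strongest of the 69 regions by the mean of the pools, with bases in footprints of both pools in capitals (72 of 220). The protected stretch CTGAGTGAGTCAGAGAG holds an AP-1 match.
Gli2 intron region: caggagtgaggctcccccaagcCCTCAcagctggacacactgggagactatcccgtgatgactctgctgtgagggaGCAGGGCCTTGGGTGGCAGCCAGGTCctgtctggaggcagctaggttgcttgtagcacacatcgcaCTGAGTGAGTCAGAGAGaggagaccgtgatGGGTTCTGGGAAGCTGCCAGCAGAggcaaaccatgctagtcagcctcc
In all, 14 shared regions lay in the window of Gli2, none of them at another gene's promoter: 1 at its promoter, 8 in introns, 1 in a coding exon, 3 upstream and 1 downstream. Apart from the strong intron site and the promoter, those inside the gene ranged from 0.275 to 0.803 in replicate 1. AP-1 matches were present in 7 of these 14 regions, against 23.5% of all shared regions and 18.8% of the 69. Among the other genes, Shh, Gli1 and Smo had 0, Gli3 2 of 14, Ptch1 2 of 11, Nr2f2 1 of 6 and Hhip 1 of 2.

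Gli3 encodes the family member best known as a repressor. It lies on chromosome 13 from 15463235 to 15730026 on the plus strand and has 2 annotated TSSs, and the noncoding gene Gm6556 starts beside it. The promoter was covered by a row of weak regions rather than 1 strong peak. Signals were 0.617 and 0.895 at 15462681 to 15463040, 0.936 and 0.959 at 15463081 to 15463320, 0.528 and 0.751 at 15463521 to 15463820, and 0.520 and 0.584 at 15464161 to 15464560. Cleavage at an FDR under 0.05 was listed over 1711 of the 2730 promoter bases in replicate 1 and over 2494 in replicate 2. Of the 10 shared regions away from promoters, 6 lay in introns. The strongest of them by the mean of the pools was in an intron at 15707401 to 15707640, with 0.981 and 1.40. A region downstream of the gene at 15741901 to 15742100 had 1.11 and 1.01, and was the higher of the pair in replicate 1. The whole window of 367 kb had 3.82 shared regions per 100 kb, fewer than the median of 6.20 over all genes.

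**Figure D2:**
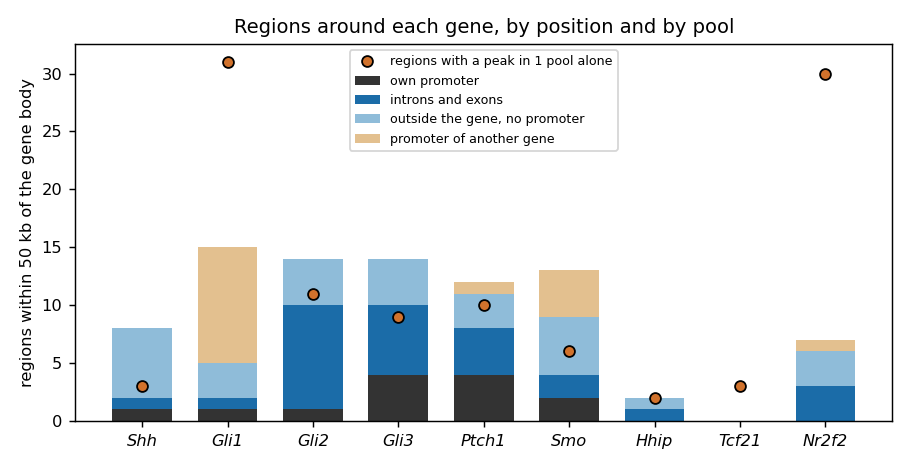
Bars count the shared regions within 50 kb of each gene body (y axis) by position, and circles count the regions with a peak in 1 pool alone, both pools together. Gli1, Ptch1, Smo and Nr2f2 have bar segments from promoters of neighbouring genes, Tcf21 has no shared region, and the circles are highest at Gli1 (31) and Nr2f2 (30).

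The 2 capsule genes differed from each other. A shared region within 50 kb was present at 8 of the 9 genes, against 89.5% of all genes, and the exception was Tcf21. A shared region away from every promoter was likewise present at 8 of the 9, against 86.4%. Tcf21, on chromosome 10 from 22817281 to 22820174 on the minus strand, encodes a transcription factor of the basic helix-loop-helix class. Replicate 1 had no peak and no footprint in that window, and 60 bases at an FDR under 0.05. In replicate 2 there were 3 weak peaks, at the promoter (0.288) and downstream at 22778041 to 22778200 (0.344) and 22776205 to 22776329 (0.240), and again no footprint. At the promoter peak of replicate 2, which spans 22820121 to 22820297, cleavage in replicate 1 was listed over 54 bases with a lowest FDR of 0.0246, so the same place had a trace of signal in both pools that was called as a peak in 1 of them.

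Nr2f2, which encodes the nuclear receptor COUP-TFII, lies on chromosome 7 from 70351944 to 70366735 on the minus strand, with TSSs at 70366735 and 70360593. Its body was open in both pools, although by the 1 kb rule a promoter peak was called in replicate 2 alone. In replicate 1, cleavage at an FDR under 0.05 was listed over 119 of the 4002 promoter bases, with a lowest FDR of 0.00113, and in replicate 2 over 3182. The strongest region outside neighbouring promoters, chr7:70361601-70361960, had signals of 3.40 in replicate 1 and 4.86 in replicate 2. This region lies in an intron of the longer transcript and begins 1008 bp upstream of the inner TSS, 8 bp beyond the 1 kb limit. With promoters of 2 kb, Nr2f2 had a promoter peak in both pools. The central 300 bases, chr7:70361631-70361930 on the minus strand, are shown because the region is rich in CG pairs (33 of them) and was protected at its centre in both pools (capitals, 52 bases in all).
Nr2f2 intron region: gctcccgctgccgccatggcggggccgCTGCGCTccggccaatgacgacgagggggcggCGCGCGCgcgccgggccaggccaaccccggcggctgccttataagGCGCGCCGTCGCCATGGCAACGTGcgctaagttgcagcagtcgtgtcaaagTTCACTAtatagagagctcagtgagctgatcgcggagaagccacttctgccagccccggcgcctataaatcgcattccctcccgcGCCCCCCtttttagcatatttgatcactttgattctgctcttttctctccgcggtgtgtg
The longest protected stretch, GCGCGCCGTCGCCATGGCAACGTG, contains 11 bases of the palindromic X-box that RFX factors bind, at 70361806 to 70361816. These letters, searched after the sequence was seen, occurred on either strand in no other of the 69 regions and in 133 of all shared regions (0.138%). Further shared regions lay in introns at 70355801 to 70356360 (1.74 and 1.70) and 70364861 to 70365120 (1.61 and 2.32), and downstream, within the noncoding gene Gm29683, at 70331781 to 70332041 (1.49 and 2.32), 70335021 to 70335220 (1.49 and 2.64) and 70325455 to 70325711 (1.17 and 1.26). The promoter region of Gm44946, a noncoding gene downstream, had 5.71 and 7.15.

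Around Nr2f2 the pools differed in extent more than at any of the other 6 genes with such bases in replicate 1. Joining peaks of replicate 2 less than 2 kb apart gave a block from 70354641 to 70371040, 16.4 kb long and covering most of the gene body and its upstream flank, with 23 regions in replicate 2. Only 3 of these had a peak in replicate 1, and the signals of the other 20 in replicate 2 ran from 0.248 to 2.01. Bases with an FDR of at most 0.001 numbered 2111 in the window in replicate 1 and 10453 in replicate 2, a ratio of 4.95. The ratio was 0.864 at Shh, 1.18 at Smo, 1.54 at Gli2, 2.07 at Gli3, 2.23 at Gli1 and 2.28 at Ptch1, and 1.38 over the genome. Of the 24 regions seen only in replicate 2 in this window, 0 had a base with an FDR under 0.05 in replicate 1. This was not particular to Nr2f2, with 0 of 30 at Gli1, 0 of 8 at Gli2, 0 of 2 at Hhip and 0 of 1 at Shh. It was 2 of 8 at Gli3, 1 of 7 at Ptch1, 2 of 4 at Smo and 1 of 3 at Tcf21. The reverse was also found: of 6 regions seen only in replicate 1 at Nr2f2, 0 had such a base in replicate 2. It was 0 of 3 at Gli2, 0 of 1 at Gli3, 1 of 1 at Gli1, 1 of 2 at Shh and at Smo, and 1 of 3 at Ptch1. The same shares over the genome were not computed.

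In this window several peaks of moderate signal had a weak FDR. In replicate 1 the intron region at 70364861 to 70365120 had a signal of 1.61 and a lowest FDR of 0.0102, and that at 70355801 to 70356360 had 1.74 and 0.00234. By contrast, a weaker peak at 70339561 to 70339860 downstream of the gene had a signal of 0.550 and an FDR of 2.05e-08. That peak was called in replicate 1 alone. Of the 7 peaks of replicate 1 in this window with a signal of at least 1, 5 were missing from the shorter list, against 4.66% of all 39520 such peaks. In replicate 2, 3 of 14 were missing, against 4.43%. Of the other genes, Gli1 missed 2 of 12 and Ptch1 1 of 7 in replicate 1, and no other window missed any in either replicate. The sources used here do not say how the FDR was set near this gene, and its part in the difference between the pools was not tested.

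**Figure D3:**
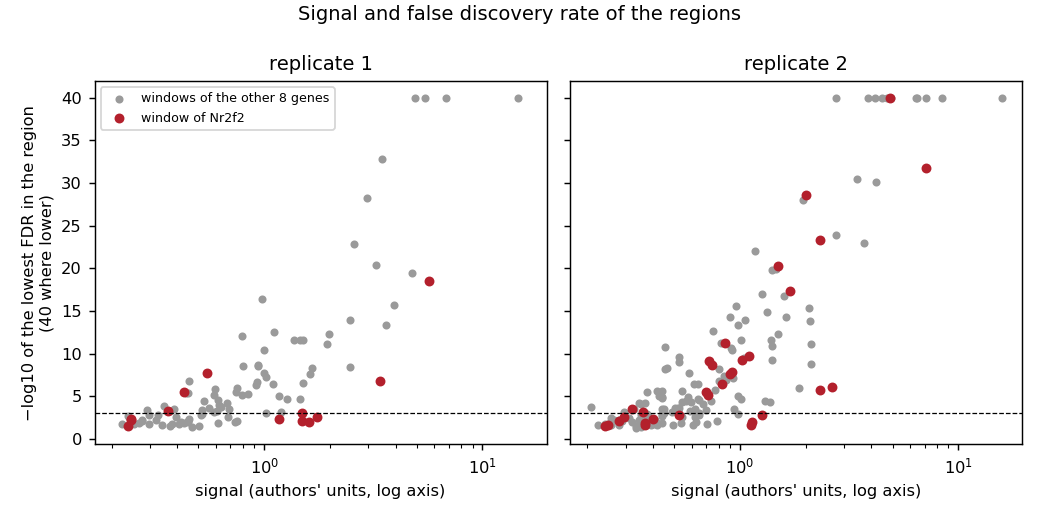
Each point is a region in a gene's window that has a peak in that replicate, by its signal (x axis, log scale, authors' units) and −log10 of its lowest FDR (y axis, drawn at 40 where higher), with the dashed line at an FDR of 0.001. In replicate 1, 4 of the 5 red points of Nr2f2 at signals from 1.17 to 1.74 sit below the line.

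The window of Gli1 also held many regions seen in replicate 2 alone, 30 against 1 in replicate 1 alone. Of the 30, 19 lay downstream of Gli1 inside other genes, such as Mbd6, Ddit3 and Mars, 7 at promoters of other genes, 3 upstream and 1 at the promoter of Gli1. Their signals were low, from 0.336 to 0.767. Over all 9 windows, 85 distinct regions were shared, 18 had a peak in replicate 1 alone and 87 in replicate 2 alone, so 44.7% of the regions were shared, against 60.0% of all regions of the genome. Gli1 held 30 and Nr2f2 24 of the 87. Of the 69 regions outside other genes' promoters, 57 had more signal in replicate 2, with a median log2 ratio between the pools of 0.35, the same as over all shared regions.

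**Figure D4:**
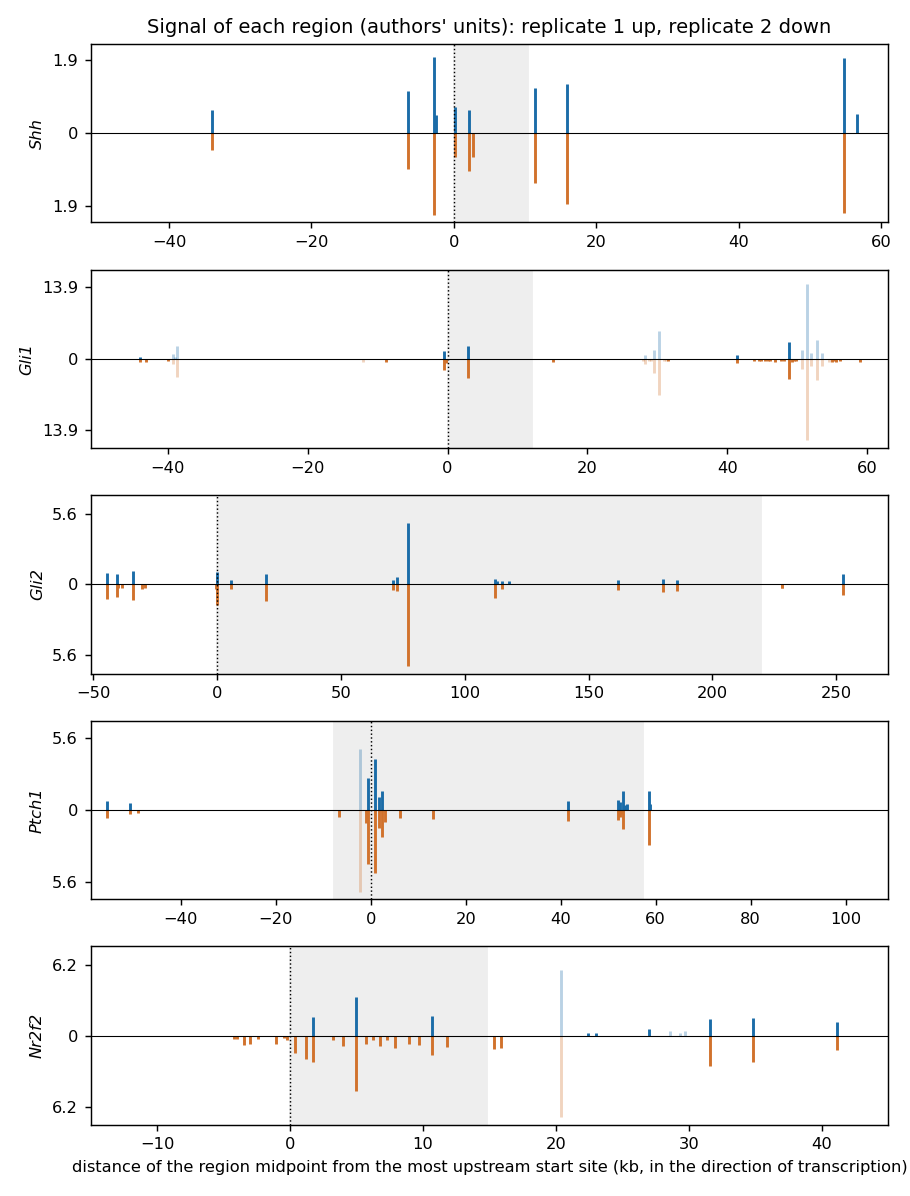
Lines give the signal (y axis, authors' units) of each region in replicate 1 (up) and replicate 2 (down) by the distance of its midpoint from the most upstream TSS (x axis, kb), the grey band is the gene body, and pale lines are promoters of other genes. Gli2 shows 1 tall intron site with 4.88 and 6.48, Gli1 is surrounded by taller promoters of other genes, and Nr2f2, shown near the gene alone, has many short lines in replicate 2 without a partner in replicate 1.

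The 69 regions comprised 13 at promoters of the 9 genes, 25 in introns, 2 in coding exons and 29 outside the gene bodies. The 56 regions away from promoters had a median signal of 0.684 and 0.831, against 0.721 and 0.915 for all shared regions away from promoters. The median width was 240 bp, as for all shared regions, and the median GC content was 51.9% against 51.1%. Footprints of both pools were present in 55 of the 69 (79.7%), against 78.6% of all shared regions. The 9 windows held 281 distinct footprints in replicate 1 and 403 in replicate 2. Overlap of a replicate 1 footprint with one of replicate 2 was 59.2% at Gli1, 53.3% at Smo, 52.8% at Gli2 and 50% at Shh and at Nr2f2. It was 45.7% at Ptch1, 33.3% at Gli3 and 0% at Hhip, which had 1 footprint. The same share over all footprints was not computed, so none of these can be called high or low. Promoter footprints in both pools were found at 6 of the 9 genes, against 59.7% of all genes. They were most numerous at Ptch1, with 14 in replicate 1 and 22 in replicate 2, and Nr2f2 had 1 and 14.

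Motifs were matched exactly on both strands over each whole region. A match describes the letters and not a bound protein. The E-box CAGCTG, which Tcf21 and other basic helix-loop-helix factors can bind, was found in 14 regions (20.3%, all shared regions 19.6%), and AP-1 in 13 (18.8%, all 23.5%). The nuclear receptor core site AGGTCA, which Nr2f2 binds in pairs, was found in 12 (17.4%, all 25.6%), and overlaps the NR5A1 site CAAGGTCA, which steroidogenic factor 1 binds and which was found in 2 (2.90%, all 6.67%). The direct repeat of that core with 1 base between its copies was found in 0 regions (all 0.0621%), and so was the cAMP response element TGACGTCA (all 1.16%). The core of the CTCF insulator motif was found in 1 region, 34121 bp upstream of Gli2, inside footprints of both pools (all 4.12%). A looser form of it, with 1 more base left free, was chosen after the sequences were seen and overlaps the former. It was found in 4 regions (5.80%, all 8.78%), 1 each at Shh, Gli1, Gli2 and Gli3. The match of Gli1 lay in the protected stretch of its promoter region printed above, GACCAGCAGAGGGCGCGAA.

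RefSeq promoter windows on GRCm38.p6, which span 250 bases before to 50 after the start, were matched for 7 of the 9 genes, all but Shh and Gli1. GC content was 76.3% at Ptch1, 73.7% at Hhip, 71% at Gli3, 67.7% at Smo, 67.3% at Gli2, 53.3% at Tcf21 and 49.7% at Nr2f2. The median was 61% over genes with a promoter peak in both pools and 47.7% over the other genes. Hhip thus combined a GC content above the former median with almost no peak signal. The Nr2f2 window lies at the outer TSS and had few CG pairs, with an observed-to-expected ratio of 0.109.

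Among other genes of the pathway, 46 of 55 had promoter peaks in each pool (83.6%, all genes 61.9%). These lists were chosen with earlier results of these data known, and the counts are descriptions. All 12 genes of the kinases and turnover factors that act on Gli proteins had one, with median signals of 5.28 and 6.42. Btrc, a ubiquitin ligase subunit gene, had 13.8 and 16.7, the kinase gene Gsk3b 14.3 and 15.2, and Prkaca, the catalytic subunit of protein kinase A, 11.2 and 12.5. Of 14 cilium and transduction genes 12 had one, with Sufu, the inhibitor that holds Gli proteins in the cytoplasm, at 7.84 and 9.86, Ift172 at 6.99 and 8.51 and Arl13b at 6.83 and 7.40. Efcab7 had none, and Gpr161 had one in replicate 2 alone (0.448). Many of these act in other pathways as well.

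Receptor and co-receptor genes had one at 5 of 5, with Gas1 at 4.21 and 4.73, Boc at 2.55 and 3.57 and Cdon at 2.15 and 3.53. Ligand and ligand release genes had one at 6 of 8. Disp2, a relative of the ligand transporter Disp1, had 4.08 and 5.45, Scube1 1.55 and 2.63 and Hhat, which attaches palmitate to the ligand, 1.53 and 1.57. The ligand gene Ihh had none in either pool and Dhh had 0.840 and 0.711. Scube2 had one in replicate 2 alone (0.400). Of 16 genes named as targets in other tissues, 11 had one, among them Snai1 (5.09 and 6.01), Ccnd2 (3.11 and 4.41) and Foxc2 (3.05 and 2.97). Foxf2, Foxl1, Jag2, Osr1 and Bmp4 had none in either pool.

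Among capsule and stroma genes, 10 of 16 promoters were called open in each pool, or 62.5%, near the background of 61.9%. Some transcription factor genes were among the highest and others were low. Meis1 had 5.16 and 6.58, and Gata6, which cortical cells also use, had 4.79 and 6.23, but Gata4 had 0.580 and 0.663. Genes of fibroblast and capsule products varied. The collagen gene Col1a1 had 1.51 and 2.60, while the collagen gene Col1a2 had 0.320 and 0.320. The growth factor receptor gene Pdgfra had 1.26 and 2.01, and Rspo3, the capsule's Wnt-enhancing ligand gene, 0.401 and 0.400. Lum and Dpt had none in either pool. Wt1, Dcn and Ogn had one in replicate 1 alone, at 0.327, 0.260 and 0.312, and Thy1 in replicate 2 alone, at 0.464.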

How the data were processed

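DNase-seq libraries of 2 pools of adrenal glands, 1 per pool, were analysed as 1 group. Peaks, footprints and cleavage tables were made by the authors for each pool from filtered alignments to mm10, per the file headers and readme texts. For the aligner, peak caller and footprint caller, names and settings were not given in the sources used here. Peaks carry a signal value as deposited, whose scaling is not stated, so no depth, counting interval or floor can be given, and signals of the pools were compared without rescaling. The deposited cleavage tables give a false discovery rate (a p-value adjusted by the authors, 0.05 or lower in every listed interval). The footprint lists as deposited hold the same p-value of 0.01 in each row, a label of the list. Each pool has 2 peak lists, whose difference is not stated, and the longer one was used. The mice carry a CAST/EiJ genome copy, while the alignments and printed sequences are C57BL/6J.

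Peaks of the pools that overlapped by at least 1 bp were merged, and a merged region was called shared where it held a peak of each pool. Its signal in a pool is that of its strongest peak. Genes and start sites came from GENCODE M21 (basic), with pandas 2.3.3, numpy 2.4.6 and python 3.11.15. The percentile of a gene is among protein-coding genes with a promoter peak in that pool. No test between groups was possible, so values stand beside the same quantity over all genes or all shared regions. The overlap and motif counting were checked on simulated data.

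The members, gene lists and motifs were chosen with earlier results of these data known. Of each list, the 3 genes with the highest mean promoter signal and those without a promoter peak in either pool were named, except for 1 gene that is not reported here, and 1 sequence is likewise not reported. Genes with a peak in 1 pool alone, Dhh, Rspo3, Col1a1, Col1a2, Pdgfra and Gata4 were chosen after their values were seen. The Gli1 intron region, the looser CTCF and RFX letters and the 2 kb joining of Nr2f2 peaks were likewise chosen after values or sequences were seen. Alternatives were the shorter peak lists, equal peak numbers, each pool alone, other promoter and window sizes, 50% reciprocal overlap, footprints inside peaks, and motif matches near region midpoints.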

Additional observations from a re-analysis of the deposited data

How the results depend on the processing

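The count of genes with a promoter peak in both pools was 6 of 9 and ranged from 5 (shorter lists, without Shh) to 7 (2 kb promoters, with Nr2f2). Taking each pool alone gave 6 to 9. The 85 distinct shared regions became 56 with the shorter lists and 133 with windows of 100 kb, as follows from fewer peaks and more sequence. Each pool alone gave 106 to 173 regions with a peak. The 1 region with a GLI match became 0, and the 2 with an NR5A1 match became 1, when only matches within 75 bp of the midpoint were counted. Of 45 alternative values for the counts and medians over the 9 genes, lists and motifs, 40 stayed within 1.5 times or within the spread of the pools. With each pool alone, the median promoter signal ran from 1.18 to 1.49, the Hedgehog lists from 46 to 48 genes and the capsule list from 11 to 13. Those 40 include the change from 6 to 9 genes with replicate 2 alone, which is at the limit of 1.5 times. Of the values for single genes, 20 moved further and 78 did not. The 78 include promoter signals of 1 pool alone, which lie within the spread of the pools by construction and so could not move. A promoter signal without a peak in both pools, as that of Shh with the shorter lists, was left out of these counts. With the shorter lists, shared regions went from 7 to 2 at Nr2f2, 2 to 0 at Hhip and 8 to 5 at Shh. With 20 kb windows those of Gli1 went from 15 to 5. With 100 kb windows Tcf21 had 4 in place of 0, Gli2 23, Ptch1 19, Smo 21 and Nr2f2 13.

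No paired analysis was possible because the series holds a single group. With 2 pools of 1 group, neither a test nor a search for outlying samples was run. Depth is unknown, so a missing peak, as at Hhip and Tcf21 in replicate 1, does not show that chromatin was closed.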
